A study of Mus musculus with 20 samples.

Results

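The 38 collagen genes other than type IV were taken from the 47069 genes of the count table by symbol, as every symbol of the form Col, a number, a and a number apart from Col4a1 to Col4a6. They comprised 11 fibrillar, 3 network and 9 FACIT genes (fibril-associated collagens with interrupted triple helices), and 15 others: 6 beaded filament genes of type VI, 1 anchoring fibril gene, 4 transmembrane genes, 2 multiplexins and 2 unclassed genes. RNA of whole kidneys was sequenced from 20 mice of the strain 129SJ x C57Bl/6J. The 5 WT mice were untreated and, by the study's text, sampled at 15 weeks of age like the others. The other 15 mice, all male, carried the genotype Col4a3-/- in every cell, and all treatment of them ran from 5 to 15 weeks of age. The 6 Veh mice were given PBS once weekly (QW), and the 6 Anti-miR-21 mice weekly subcutaneous lademirsen at 50 mg/kg in PBS, an oligonucleotide that inhibits microRNA-21. The 3 ACEi mice drank ramipril, an inhibitor of angiotensin-converting enzyme, at 11 mg/L in their water, although the deposited library table states its dose per body weight, and the methods of the study add weekly PBS injections for this group. The WT mice were littermates. The Col4a3-/- mice model Alport syndrome on an F1 hybrid background with a disease of intermediate pace, and a whole kidney mixes all its cell types.

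Collagens are trimers wound into a triple helix. Fibrillar chains (types I, II, III, V, XI, XXIV and XXVII) assemble into the banded fibrils of scar and connective tissue, and FACITs sit on the surface of such fibrils. Network collagens (types VIII and X) form sheets, type VI forms beaded filaments around cells, type VII anchors basement membrane to the tissue beneath, and the multiplexins XV and XVIII border basement membranes. In kidney fibrosis, interstitial fibroblasts and myofibroblasts are the main source of fibrillar collagen.

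Library totals lay between 28474301 and 29479629 estimated counts. The knockout target Col4a3 had 194 to 238 CPM (counts scaled by TMM and by library size, as edgeR's CPM) in WT, 27.9 to 46.3 in Veh, 45.9 to 74.9 in Anti-miR-21 and 42.8 to 56.2 in ACEi mice, so that no Col4a3-/- library reached a WT one. Each library came from a separate mouse. The summed proximal tubule markers were at 9596 to 12662 CPM in WT, while the extraction text of the labels names adipose tissue. Summed adipocyte markers exceeded 50 CPM in 4 mice (Veh A1, A4 and A9 and Anti-miR-21 A12), and each count of members below was repeated without them. The markers of chondrocytes and bone, where type II, IX, X and XI collagens are abundant, summed to at most 3.87 CPM in any mouse, with Ibsp, Bglap and Matn1 at 0 in all WT mice. With library totals in place of TMM, the median log2 difference of all genes moved from 0.07 to 0.65 between Veh and WT, and the calls among all genes from 6869 higher and 5998 lower to 11623 and 2684. No called member changed sign under any scaling.

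The target of lademirsen is printed with its seed (bases 2 to 8) in capitals, because the seed pairs with sites in mRNA. It lies at chr11:86584120-86584141 (GRCm38.p6, RefSeq, minus strand).
mmu-miR-21a-5p: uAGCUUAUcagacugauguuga
The complement of the seed, ATAAGCT, occurred in the longest annotated 3′ untranslated region of 1 of the 38 collagen genes (2.63%) and of 1510 of 21020 protein-coding genes (7.18%). The 1 gene was Col12a1, with the match at bases 291 to 297 of 2178, shown in capitals with its flanks.
Col12a1 site: aggaggcgcctaATAAGCTactaacca
The base that follows the match is an A, a combination found in 442 protein-coding genes. A match of letters is a description and not evidence of binding.

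Of the 38 genes 30 had promoters in the RefSeq table (33 windows of 250 bases before to 50 after a start site, GRCm38.p6), and Col1a1 had none there. Promoters are shown for Col1a2 and Col3a1, which are among the most abundant members, and for Col6a6, which moved against them. Capitals mark, on either strand, the letters CCAAT, the core promoter letters TATAAA, and the letters GGGCGG of the Sp1 family's site, and the marked matches do not overlap.
Col1a2, chr6:4505368-4505667, plus strand: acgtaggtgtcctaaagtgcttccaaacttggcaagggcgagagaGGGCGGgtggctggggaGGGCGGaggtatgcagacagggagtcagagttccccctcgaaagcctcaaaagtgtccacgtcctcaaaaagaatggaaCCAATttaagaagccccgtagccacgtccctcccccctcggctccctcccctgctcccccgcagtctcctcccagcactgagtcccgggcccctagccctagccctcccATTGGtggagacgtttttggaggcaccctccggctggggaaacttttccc
Col3a1, chr1:45311288-45311587, plus strand: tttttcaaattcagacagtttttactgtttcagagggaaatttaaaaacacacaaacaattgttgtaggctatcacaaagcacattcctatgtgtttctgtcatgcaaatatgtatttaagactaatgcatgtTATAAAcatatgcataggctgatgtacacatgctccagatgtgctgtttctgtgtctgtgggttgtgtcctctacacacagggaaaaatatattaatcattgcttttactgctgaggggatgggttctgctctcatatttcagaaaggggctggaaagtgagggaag
Col6a6, chr9:105828036-105828335, minus strand: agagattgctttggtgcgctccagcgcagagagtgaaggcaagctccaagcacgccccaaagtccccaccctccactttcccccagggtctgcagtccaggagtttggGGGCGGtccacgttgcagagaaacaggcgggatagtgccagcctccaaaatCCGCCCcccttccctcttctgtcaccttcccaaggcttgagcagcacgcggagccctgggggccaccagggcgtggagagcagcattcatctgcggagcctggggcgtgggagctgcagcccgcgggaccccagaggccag
Col1a2 held CCAAT 109 bases upstream of the start site and, on the reverse strand, from base 1 counted from the start site. It held GGGCGG at 188 bases upstream and once further out. In Col3a1 a TATAAA stood 117 bases upstream, and in Col6a6 GGGCGG stood 142 bases and, on the reverse strand, 91 bases upstream. GGGCGG was present in 19 of 33 member promoters (57.6%) and 35.7% of all 32851, CCAAT in 10 (30.3%) and 37.4%, and TATAAA in 5 (15.2%) and 13.6%.

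Together the 38 genes held 0.0646% ± 0.0157 (SD, n = 5) of the counts in WT, with the lowest mouse at 0.0469% and the highest at 0.0879%. In Veh the share was 0.740% ± 0.0813 (n = 6, 0.638% to 0.836%). It was 0.201% ± 0.0649 under Anti-miR-21 (n = 6, 0.127% to 0.277%) and 0.329% ± 0.00574 under ACEi (n = 3, 0.324% to 0.335%). The ranges of the 4 groups did not touch, with WT lowest, then Anti-miR-21, ACEi and Veh. In bulk kidney, fewer cells of a type and less RNA per cell cannot be told apart, here and in every result that follows. Anti-miR-21 and ACEi were compared with the same Veh mice, and all Col4a3-/- groups with the same WT mice.

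The makeup of the collagen pool also differed, on the FPKM scale, which corrects for gene length. The summed FPKM of the members was 132 ± 32.6 in WT and 1445 ± 159 in Veh. Col1a1, Col1a2 and Col3a1, the chains of type I and III fibrils, made up 22.4% ± 3.95 of this sum in WT, 58.9% ± 0.916 in Veh, 40.8% ± 4.21 in Anti-miR-21 and 47.9% ± 1.11 in ACEi mice (SD). These transcripts were thus the larger part of the sum in Veh and the smaller part in the other groups. Col18a1, whose protein borders basement membranes, took 32.3% ± 5.68 of the sum in WT and 15.2% ± 0.864 in Veh, with 25.6% ± 1.98 under Anti-miR-21 and 20.6% ± 1.45 under ACEi. It had the highest mean FPKM of all members in WT (41.5), Anti-miR-21 (101) and ACEi (135) mice. In Veh it ranked 4, behind Col3a1 (317), Col1a1 (274) and Col1a2 (261). Col27a1, a fibrillar chain known from cartilage, ranked 2 in WT at 17.8 and 14 in Veh at 11.9 FPKM. The authors marked the FPKM entry of Col27a1 as confounded with another gene. They marked those of Col5a1, Col5a2, Col7a1, Col8a1, Col9a3, Col10a1, Col11a1 and Col20a1 in the same way.

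**Figure D1:**
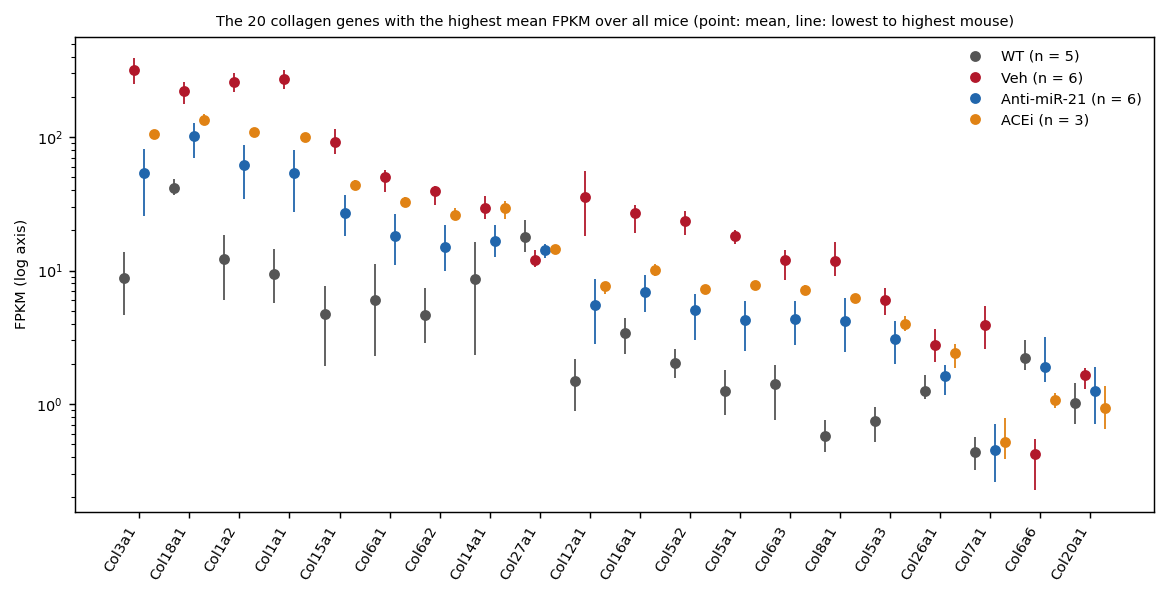
FPKM (log axis) of the 20 members with the highest mean over all mice, by group: points are means and lines run from the lowest to the highest mouse. Most red points (Veh) lie far above the grey ones (WT), Col27a1 and Col6a6 are the reverse, and Col14a1 under ACEi lies near Veh.

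The comparison of Veh with WT asks which collagens changed in Col4a3-/- kidney given vehicle alone. Of the 35 members that passed edgeR's filter on low counts, 26 rose and 4 fell in Veh (quasi-likelihood test, Benjamini-Hochberg adjusted p under 0.05 over 17622 genes). Of all genes tested 39.0% rose and 34.0% fell, 73.0% in all, so a call in this comparison was common in itself. Their median log2 fold change was 2.36, beside 0.07 for all genes. By class, 8 of 11 fibrillar genes rose and 2 fell (median 2.93), all 3 network genes rose (3.78), 5 of 7 FACIT genes rose and 1 fell (1.98), and 10 of 14 other genes rose and 1 fell (1.77). Col2a1, Col20a1, Col6a4, Col13a1 and Col23a1 did not pass by edgeR. Of these, Col2a1, Col20a1, Col6a4 and Col13a1 passed as higher in Veh with library totals and in at least 1 of the limma fits on FPKM. FPKM is also scaled by library total. Limma on log2(FPKM + 1) called 11743 of 21460 genes higher and 2612 lower in Veh than in WT. It called 10055 lower and 2380 higher under Anti-miR-21 than in Veh, and 7796 and 1846 under ACEi. Calls with library totals and by limma thus share a scaling, here and below, and are not separate support. Col10a1 and Col17a1 had at most 3 counts in every WT mouse and Col19a1 in every Veh mouse, so these genes passed the filter through other groups only. Without them 24 of 32 members rose and 3 fell, with a median of 2.23 (counted after the values were seen). Within flow cell A the counts were 26 higher and 4 lower, within flow cell B 20 and 3, and without the 4 mice with adipocyte markers 24 and 3.

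**Figure D2:**
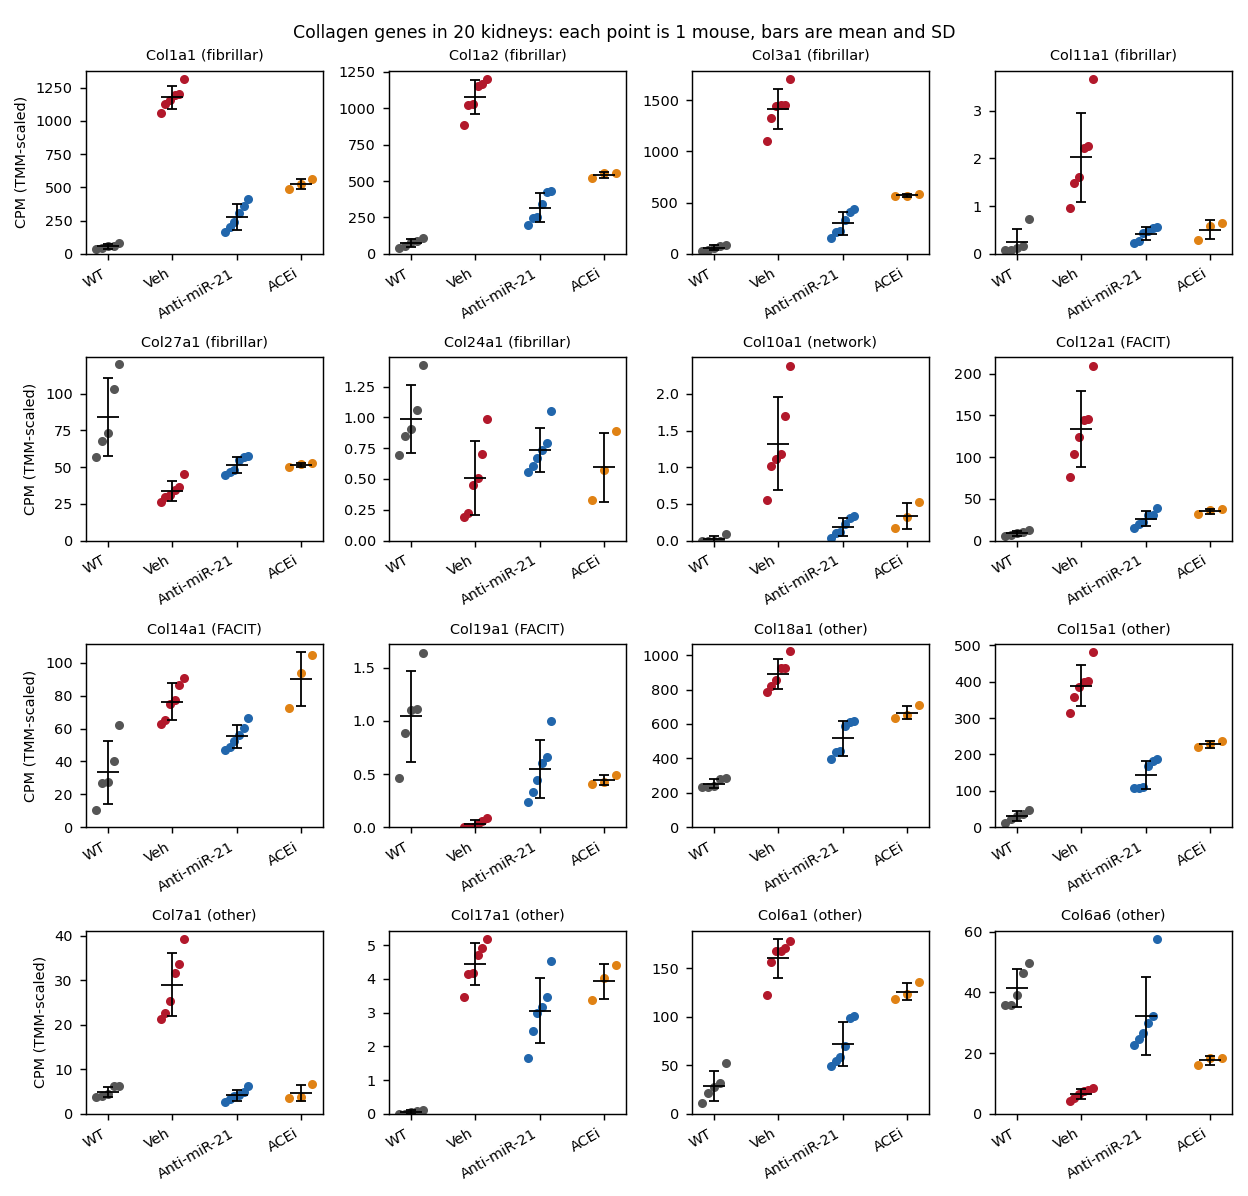
TMM-scaled CPM of 16 collagen genes in each of the 20 mice, with bars for the mean and SD of WT (n = 5), Veh (n = 6), Anti-miR-21 (n = 6) and ACEi (n = 3). The Veh points of Col1a1, Col1a2 and Col3a1 stand above all others, Col27a1, Col19a1 and Col6a6 are lowest in Veh, and Col17a1 stays high in all 3 Col4a3-/- groups.

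Type I and III chains had the largest abundance in Veh. Col3a1 (chr1:45311538-45349706, plus strand, GRCm38), the only chain of type III collagen, was at 41.5, 89.7, 72.7, 57.2 and 31.6 CPM in WT mice A3, A6, A14, A17 and A18. It ranged from 1102 (mouse A1) to 1704 (mouse A20) with a median of 1448 CPM in Veh. No WT mouse came near the lowest Veh mouse, and the log2 fold change was 4.59 ± 0.30 (SE), adjusted p = 4.92e-11, that is 24.2-fold. Under Anti-miR-21 Col3a1 ranged from 159.6 (mouse A22) to 435 (mouse A8) with a median of 281 CPM, and the ACEi mice A11, A13 and A23 had 560.4, 588 and 560.1 CPM. All treated mice lay between the highest WT and the lowest Veh mouse, and every ACEi mouse above every Anti-miR-21 mouse. Against Veh, Col3a1 fell by 2.25 ± 0.25 on the log2 scale under Anti-miR-21 (adjusted p = 2.82e-07) and by 1.31 ± 0.31 under ACEi (adjusted p = 0.00220).

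Col1a2 (chr6:4504814-4541544, plus strand), which encodes the α2 chain of type I collagen, had 56.4, 111, 91.3, 84.7 and 37.6 CPM in the WT mice in the same order. It ranged from 888 (mouse A1) to 1199.6 (mouse A19) with a median of 1089 CPM in Veh and from 199 (mouse A22) to 433 (mouse A8) with a median of 298 CPM under Anti-miR-21, and was 521, 557 and 554 CPM in the ACEi mice. The 4 groups did not overlap. The log2 fold change was 3.82 ± 0.26 (SE), adjusted p = 7.19e-11 in Veh against WT (14.1-fold), -1.76 ± 0.22 (SE), adjusted p = 1.10e-06 for Anti-miR-21 against Veh, and -0.98 ± 0.27 (SE), adjusted p = 0.00689 for ACEi against Veh. Within flow cell B alone the ACEi difference was -0.998 with an adjusted p of 0.106. Col1a1 (chr11:94936224-94953042, plus strand), the α1 chain, is given although it was chosen after its values were seen. It had 46.3, 83.9, 58.6, 61.1 and 35.9 CPM in WT and 488, 563 and 524 CPM in ACEi mice. It ranged from 1057 (mouse A16) to 1315 (mouse A19) with a median of 1179 CPM in Veh and from 162 (mouse A22) to 411 (mouse A8) with a median of 272 CPM under Anti-miR-21, again with no overlap between any of the groups. Col1a1 rose 20.6-fold in Veh (log2 4.36 ± 0.24 (SE), adjusted p = 8.67e-12) and was 4.21-fold lower under Anti-miR-21 (log2 -2.07 ± 0.20 (SE), adjusted p = 1.05e-07) and 2.24-fold lower under ACEi (log2 -1.17 ± 0.25 (SE), adjusted p = 0.00125).

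The type V chains, which join type I fibrils and limit their width, moved with them, and their values were also chosen after they were seen. Col5a1 averaged 12.7 ± 4.02 CPM in WT, 123 ± 9.56 in Veh, 36.0 ± 9.52 under Anti-miR-21 and 63.8 ± 5.93 under ACEi (SD). Its log2 fold change was 3.26 ± 0.20 (SE), adjusted p = 2.29e-11 in Veh against WT. Col5a2 rose by 2.93 ± 0.16 in Veh and fell by 1.90 under Anti-miR-21 and 1.41 under ACEi. Col5a3 rose by 2.41 ± 0.18 in Veh and fell by 0.64 under Anti-miR-21 (adjusted p = 0.00145), with overlapping groups, while under ACEi the difference was -0.31 (95% interval -0.71 to 0.08, adjusted p = 0.198), and passed with library totals and 2 limma fits (adjusted p from 0.0170 to 0.0342). Col3a1 and Col5a2 are neighbours on chromosome 1, 24.6 kb apart and on opposite strands.

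Col11a1 (chr3:114030540-114220718, plus strand), a chain of the cartilage fibril collagen XI, was low throughout. The WT mice had 0.0891, 0.123, 0.169, 0.736 and 0.0839 CPM, and mouse A17 stood apart from the other 4. Veh mice ranged from 0.957 (mouse A16) to 3.65 (mouse A4) with a median of 1.91 CPM, Anti-miR-21 mice from 0.233 to 0.570 with a median of 0.465 CPM, and the ACEi mice had 0.656, 0.286 and 0.579 CPM. Every Veh mouse was above every other mouse, while the treated groups overlapped WT through A17. The log2 fold change was 3.04 ± 0.49 (SE), adjusted p = 1.06e-05 in Veh against WT and 4.07 without A17. Col11a1 fell by 2.24 ± 0.42 under Anti-miR-21 (adjusted p = 0.000118) and by 1.99 ± 0.53 under ACEi (adjusted p = 0.00569), the largest fall of a fibrillar gene called under ACEi. Against WT both treatments missed the threshold, and without A17 both passed it (Anti-miR-21 1.83, adjusted p = 0.00488, ACEi 2.09, adjusted p = 0.00310). Col11a2, the partner chain, rose by 0.96 ± 0.27 in Veh (adjusted p = 0.00346). Within flow cell B alone the rises of Col11a1 and Col11a2 in Veh were 1.95 and 0.32 and were not called (adjusted p = 0.105 and 0.514). Col11a2 was not called by edgeR under Anti-miR-21 (-0.53, 95% interval -1.05 to -0.01) or ACEi (-0.69, -1.35 to -0.03). Library totals and the 3 limma fits called it lower than in Veh under both treatments (adjusted p from 0.00192 to 0.0428 over the 7 settings that called it under Anti-miR-21, and from 0.0114 to 0.0210 over 4 under ACEi). Col2a1, the chain of cartilage fibrils, stayed at mean levels of 0.135 CPM in WT and 0.252 CPM in Veh, and its difference of 0.89 (95% interval -0.24 to 2.02) was not called by edgeR, but was with library totals and 2 limma fits (adjusted p from 0.0141 to 0.0309).

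The 2 fibrillar genes that fell in Veh were Col27a1 and Col24a1, chains of a separate branch of the fibrillar family known from developing cartilage and bone. Col27a1 (chr4:63214004-63334991, plus strand) was at 103, 120.0, 73.4, 67.8 and 56.6 CPM in the WT mice and ranged from 26.1 (mouse A1) to 45.5 (mouse A20) with a median of 32.7 CPM in Veh. The lowest WT mouse was above the highest Veh mouse, and the log2 fold change was -1.31 ± 0.16 (SE), adjusted p = 3.05e-07. Under Anti-miR-21 Col27a1 ranged from 44.7 (mouse A8) to 57.6 (mouse A2) with a median of 51.5 CPM, and the ACEi mice had 50.0, 52.7 and 51.8 CPM. The ACEi mice lay above all Veh mice, and Anti-miR-21 mouse A8 fell just under Veh mouse A20. The rise over Veh was 0.60 ± 0.15 (SE), adjusted p = 0.00216 for Anti-miR-21 and 0.60 ± 0.18 (SE), adjusted p = 0.0130 for ACEi. With library totals in place of TMM these rises were 0.26 (adjusted p = 0.133) and 0.33 (adjusted p = 0.134), and without the 4 mice with adipocyte markers 0.45 (adjusted p = 0.0660) and 0.44 (adjusted p = 0.136). Col24a1 (chr3:145292472-145552011, plus strand) had 0.846, 0.902, 1.06, 0.695 and 1.43 CPM in the WT mice, 0.193 to 0.987 CPM (median 0.478) in Veh, 0.554 to 1.05 CPM (median 0.703) under Anti-miR-21, and 0.328, 0.573 and 0.886 CPM under ACEi. Its groups overlapped, and the fall of 0.95 ± 0.36 in Veh (adjusted p = 0.0225) became -0.78 (adjusted p = 0.0728) without WT mouse A18. The call was lost in 7 settings in all, among them library totals, flow cell B alone, the 3 limma fits and leaving out the mice with adipocyte markers (adjusted p up to 0.458). Its differences under Anti-miR-21 (0.53, 95% interval -0.19 to 1.25) and ACEi (0.23, -0.66 to 1.12) were not called.

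All 3 network genes were called higher in Veh and lower under both treatments, Col10a1 against a WT group at the floor of counts. Col10a1 (chr10:34389981-34397085, plus strand), known from the growth plate of bone, was detected in 1 WT mouse only, at 0.0891 CPM in A3, with 0 counts in the other 4. Veh mice ranged from 0.555 (mouse A16) to 2.38 (mouse A9) with a median of 1.14 CPM. The ratio of Veh over WT was 79.1 (95% interval 21.7 to 657 from 282 against 2 counts, which covers counting error only). The fitted value depends on the prior count and is not given. Anti-miR-21 mice had 0.0388 to 0.337 CPM (median 0.168) and the ACEi mice 0.525, 0.322 and 0.170 CPM, all below every Veh mouse. The difference from Veh was -2.79 ± 0.47 (SE), adjusted p = 4.33e-05 for Anti-miR-21 and -1.95 ± 0.57 (SE), adjusted p = 0.0106 for ACEi, the latter -1.62 (adjusted p = 0.0629) without A23. Col10a1 lies opposite Nt5dc1 and the strand of counting is not given in the sources used here, so reads of the 2 genes may be mixed.

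Col8a1 and Col8a2, the chains of a network collagen of vessels and mesangium, are given after their values were seen. Col8a1 averaged 3.52 ± 0.857 CPM in WT, 48.6 ± 9.83 in Veh, 21.6 ± 6.63 under Anti-miR-21 and 31.0 ± 0.512 under ACEi (SD). Col8a2 averaged 0.761 ± 0.296, 8.91 ± 2.22, 1.96 ± 0.701 and 4.18 ± 0.500 CPM in the same order. Both rose in Veh, by 3.78 ± 0.22 and 3.54 ± 0.28 on the log2 scale. Col8a2 was lower by more than Col8a1 under Anti-miR-21 (-2.18 and -1.17). Under ACEi the difference was -1.09 for Col8a2 (adjusted p = 0.00401) and -0.65 for Col8a1 (adjusted p = 0.0210), and the Col8a1 call was lost without A9, A11, A13 or A23 (adjusted p from 0.0583 to 0.0762).

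Among the FACIT genes, Col12a1 (chr9:79598991-79718831, minus strand), whose protein lies along type I fibrils and which carried the seed match printed above, rose and fell most among those that rose in Veh. The WT mice had 6.28, 9.31, 12.9, 9.97 and 4.99 CPM, Veh mice ranged from 75.7 (mouse A16) to 209.3 (mouse A9) with a median of 134 CPM, Anti-miR-21 mice from 14.8 to 39.2 with a median of 26.1 CPM, and the ACEi mice had 36.0, 31.6 and 37.2 CPM. Veh stood clear of all other mice and WT below them, while the treated groups overlapped each other. Col12a1 rose 15.4-fold in Veh (log2 3.94 ± 0.30 (SE), adjusted p = 3.36e-10) and was 5.13-fold lower under Anti-miR-21 (-2.36 ± 0.25 (SE), adjusted p = 2.19e-07) and 3.83-fold lower under ACEi (-1.94 ± 0.32 (SE), adjusted p = 0.000119). Of the other FACIT genes, which were chosen after their values were seen, Col16a1 rose by 2.36 ± 0.17 and fell by 1.61 under Anti-miR-21 and 1.06 under ACEi. Col22a1, a collagen of tissue junctions, rose by 2.09 ± 0.44 and fell by 1.01 under Anti-miR-21 (adjusted p = 0.0235) and 2.83-fold under ACEi (adjusted p = 0.0190). At a mean of 0.553 CPM in Veh its calls were lost without single mice, with an adjusted p up to 0.0761 without A4 under Anti-miR-21 and 0.0947 without A13 under ACEi. Col9a3, a chain of type IX collagen, rose by 1.98 ± 0.30 and fell by 1.16 and 1.14, the last with an adjusted p of 0.0644 without A11. Its partners Col9a1 and Col9a2 were too low to test, at no more than 0.101 and 0.286 CPM in any mouse.

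Col14a1 (chr15:55307750-55520803, plus strand), another FACIT of type I fibrils, was singled out after its values were seen. The WT mice had 27.8, 62.2, 40.04, 26.7 and 10.2 CPM, Veh mice ranged from 62.7 (mouse A9) to 90.8 (mouse A20) with a median of 76.3 CPM, Anti-miR-21 mice from 46.9 (mouse A12) to 66.2 (mouse A2) with a median of 54.3 CPM, and the ACEi mice had 72.5, 105 and 94.1 CPM. ACEi mice A13 and A23 were above every Veh mouse, all 3 ACEi mice above every Anti-miR-21 mouse, and Anti-miR-21 mice overlapped both Veh and WT. It rose in Veh (log2 1.19 ± 0.27 (SE), adjusted p = 0.000488), and was called against Veh neither under Anti-miR-21 (-0.47, 95% interval -0.98 to 0.05, adjusted p = 0.113) nor under ACEi (0.24, -0.38 to 0.87, adjusted p = 0.545). With library totals the Anti-miR-21 difference was -0.80 (adjusted p = 0.00982) and the ACEi difference -0.03. The 3 limma fits, and edgeR when only the groups compared were fitted, also called Col14a1 lower under Anti-miR-21 than in Veh. Over these 5 settings the adjusted p ran from 0.00178 to 0.0261. Col20a1 was at 3.52 CPM in WT and 3.98 CPM in Veh on average and was not called by edgeR (log2 0.18, 95% interval -0.16 to 0.52), but was called higher in Veh with library totals and the 3 limma fits (adjusted p from 0.000487 to 0.0179). The same settings called it lower under ACEi than in Veh (adjusted p from 0.0194 to 0.0310). Library totals also called it lower under Anti-miR-21 than in Veh (adjusted p = 0.0241).

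Col19a1 (chr1:24261890-24587472, minus strand), a FACIT of basement membrane zones, went the other way. The WT mice had 1.11, 1.64, 0.887, 1.10 and 0.461 CPM, whereas Veh mice had 0 to 0.0846 CPM (highest in A20), which is at most 3 counts a mouse. Under Anti-miR-21 it ranged from 0.236 (mouse A2) to 1.001 (mouse A10) with a median of 0.521 CPM, and the ACEi mice had 0.492, 0.429 and 0.409 CPM. Every treated mouse was above every Veh mouse. Summed counts gave a ratio of WT over Veh of 36.8 (95% interval 16.4 to 102, 124 against 6 counts). The ratio over Veh was 19.1 (8.45 to 53.4, 91 counts) for Anti-miR-21 and 15.7 (6.59 to 45.3, 39 counts) for ACEi. The fitted values against Veh depend on the prior count and are not given. Against WT, Col19a1 was -0.93 under Anti-miR-21 and -1.22 under ACEi, which edgeR did not call (adjusted p = 0.0801 and 0.0646). It was called below WT by DESeq2 and the 3 limma fits under both treatments, and without WT mouse A18 by edgeR too (adjusted p = 0.0415 and 0.0348), with an adjusted p down to 0.000229 and 0.000116.

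Of the remaining genes, Col17a1 (chr19:47646344-47692094, minus strand), a transmembrane collagen that holds epithelial cells to their basement membrane at hemidesmosomes, had the largest rise. The WT mice had 0.0891, 0, 0, 0.0409 and 0.126 CPM, at most 3 counts in any mouse. Col17a1 ranged from 3.47 (mouse A9) to 5.17 (mouse A4) with a median of 4.43 CPM in Veh and from 1.67 (mouse A22) to 4.52 (mouse A8) with a median of 3.09 CPM under Anti-miR-21, and the ACEi mice had 4.39, 3.36 and 4.02 CPM. Every Col4a3-/- mouse was far above every WT mouse, and the 3 Col4a3-/- groups overlapped one another. Over WT, the ratio of CPM from summed counts was 87.6 in Veh (95% interval 40.1 to 239, 937 against 6 counts), 60.9 under Anti-miR-21 (27.8 to 167) and 78.0 under ACEi (35.5 to 214.1). Against Veh, Anti-miR-21 differed by -0.54 ± 0.22 (SE), adjusted p = 0.0457, a call lost without any 1 of 10 mice of these groups (adjusted p from 0.0513 without A15 to 0.109 without A22). Under ACEi the difference was -0.17 (95% interval -0.75 to 0.40, adjusted p = 0.643). Urothelium markers, which mark another epithelium of the kidney, summed to 2.14 to 30.5 CPM in WT (highest in A17), 6.02 to 137 in Veh (highest in A1), 1.55 to 7.57 under Anti-miR-21 and 1.64 to 5.15 under ACEi, and their part in this result was not tested.

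Col7a1 (chr9:108953586-108984875, plus strand), the anchoring fibril collagen, fell furthest under ACEi. It had 3.83, 4.51, 3.97, 6.17 and 6.25 CPM in the WT mice, ranged from 21.2 (mouse A16) to 39.3 (mouse A9) with a median of 28.5 CPM in Veh and from 2.59 (mouse A12) to 6.16 (mouse A2) with a median of 4.12 CPM under Anti-miR-21, and was 6.79, 3.61 and 3.68 CPM in the ACEi mice. The treated groups overlapped WT, and all Veh mice lay above both. Col7a1 rose by 2.55 ± 0.23 (SE), adjusted p = 4.20e-09 in Veh. It fell by 2.79 ± 0.22 under Anti-miR-21 (adjusted p = 2.94e-08) and by 2.62 ± 0.28 under ACEi (adjusted p = 1.04e-05), the largest fall in log2 of any member under ACEi. Against WT the difference was -0.24 (95% interval -0.72 to 0.24) under Anti-miR-21 and -0.07 (-0.65 to 0.50) under ACEi, with signs that turned under library totals (0.01 and 0.24).

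Type VI collagen is built from α1, α2 and a further chain, and Col6a1, Col6a2 and Col6a3 rose in Veh while Col6a6 fell. Col6a6 (chr9:105687809-105828160, minus strand), an alternative to the α3 chain, was at 35.9, 46.4, 35.8, 39.3 and 49.7 CPM in the WT mice and ranged from 4.31 (mouse A1) to 8.42 (mouse A16) with a median of 6.97 CPM in Veh. Anti-miR-21 mice ranged from 22.6 (mouse A2) to 57.7 (mouse A22) with a median of 28.3 CPM, and the ACEi mice had 18.5, 18.4 and 15.9 CPM. WT was clear of Veh, and the treated groups stood between Veh and WT except for A22, which exceeded every WT mouse. Col6a6 was 6.28-fold lower in Veh (log2 -2.65 ± 0.21 (SE), adjusted p = 6.70e-10), 4.89-fold higher than Veh under Anti-miR-21 (2.29 ± 0.20 (SE), adjusted p = 4.97e-08) and 2.67-fold higher under ACEi (1.42 ± 0.24 (SE), adjusted p = 0.000114). Against WT the Anti-miR-21 difference was -0.36 (adjusted p = 0.151) and, without A22, -0.60 (adjusted p = 0.00256).

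The common type VI chains and the relatives of Col6a6 were described after their values were seen. Col6a1 had 21.2, 52.0, 31.3, 28.0 and 11.0 CPM in the WT mice, ranged from 122 (mouse A1) to 178 (mouse A20) with a median of 167 CPM in Veh and from 49.3 (mouse A22) to 101 (mouse A8) with a median of 64.0 CPM under Anti-miR-21, and was 119, 123 and 136 CPM in the ACEi mice. The ACEi mice overlapped Veh and the Anti-miR-21 mice did not. Col6a1 rose by 2.48 ± 0.28 in Veh, fell by 1.16 under Anti-miR-21 (adjusted p = 0.000479), and differed by -0.35 under ACEi (95% interval -0.98 to 0.29, adjusted p = 0.382). Col6a2 rose by 2.48, fell by 1.06 under Anti-miR-21 and differed by -0.30 (-0.78 to 0.18) under ACEi. Col6a3 rose by 2.51, fell by 1.16 under Anti-miR-21 and differed by -0.47 under ACEi (adjusted p = 0.124), where library totals gave -0.74 (adjusted p = 0.0240). By edgeR 4 of 6 type VI genes were lower under Anti-miR-21 (30.5% of all genes) and 0 of 6 under ACEi (19.1%). Under ACEi, limma called Col6a3 in all 3 fits and Col6a2 in 1 (adjusted p = 0.0477), and edgeR called Col6a1 when only the groups compared were fitted (adjusted p = 0.0294). The treatments are set against each other directly below. Col6a5 rose by 1.61 in Veh, fell by 1.76 under Anti-miR-21 and differed by -0.19 (-0.98 to 0.59) under ACEi, and Col6a4, at a mean of 0.382 CPM or less, was called in no comparison by edgeR with TMM over all 20 mice. In Veh against WT it passed with library totals and with limma on log2(FPKM + 0.1) (adjusted p from 0.0313 to 0.0428). Col6a4, Col6a5 and Col6a6 lie in a row on chromosome 9, 28.8 and 27.9 kb apart on the minus strand.

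The multiplexin Col18a1 (chr10:77052178-77166548, minus strand), whose C-terminal fragment is endostatin, had 239.6, 281, 231, 284 and 235 CPM in the WT mice. It ranged from 789 (mouse A16) to 1025 (mouse A20) with a median of 891 CPM in Veh and from 396 (mouse A22) to 619 (mouse A8) with a median of 516 CPM under Anti-miR-21, and the ACEi mice had 709, 653 and 636 CPM. No groups overlapped. Its rise in Veh was 3.51-fold (log2 1.81 ± 0.12 (SE), adjusted p = 6.51e-11). It fell by 0.79 ± 0.11 under Anti-miR-21 (adjusted p = 4.60e-06) and by 0.42 ± 0.14 under ACEi (adjusted p = 0.0189), the latter lost without A20, A13 or A23 (adjusted p from 0.0552 to 0.0791). Col18a1 overlaps Slc19a1 on the other strand. Col15a1, its relative in vessels and the interstitium, was chosen after its values were seen and averaged 30.02 ± 13.5 CPM in WT, 389 ± 55.5 in Veh, 144 ± 39.1 under Anti-miR-21 and 228 ± 9.13 under ACEi. It rose 12.97-fold in Veh (log2 3.70 ± 0.27 (SE), adjusted p = 1.96e-10), fell by 1.44 under Anti-miR-21 (adjusted p = 1.89e-05) and by 0.77 under ACEi (adjusted p = 0.0341), a call lost without any 1 of A4, A16, A19, A20, A11, A13 and A23 (adjusted p from 0.0511 to 0.101).

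The last genes changed less. Col28a1 rose by 1.73 ± 0.46 in Veh at a mean of 0.598 CPM, and fell by 1.68 under Anti-miR-21 and by 1.46 under ACEi, the last lost without A1, A9, A19, A13 or A23 (adjusted p from 0.0509 to 0.159). Col26a1 rose by 0.50 ± 0.16 in Veh with overlapping groups and fell by 0.42 under Anti-miR-21, which was lost without A4, A20 or A15 (adjusted p from 0.0543 to 0.0831). Its rise in Veh was not called within flow cell B (0.39, adjusted p = 0.272) or without the mice with adipocyte markers (0.44, adjusted p = 0.0527). The Anti-miR-21 call was also lost within flow cell A (adjusted p = 0.111) and without those mice (adjusted p = 0.119). Of the transmembrane collagens, Col13a1 (mean 1.68 CPM in WT and 1.995 in Veh) and Col23a1 (5.14 and 4.82) were called by edgeR with TMM over all 20 mice in none of these comparisons. Library totals and the 3 limma fits called Col13a1 higher in Veh than in WT (adjusted p from 0.00780 to 0.0270), and library totals, the 3 limma fits and the fit without Veh mouse A9 called Col23a1 lower under Anti-miR-21 than in Veh (adjusted p from 0.00583 to 0.0395). Col25a1, a collagen of neurons, was too low to test and at most 0.302 CPM in any mouse.

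The comparisons of the treatments with Veh ask how much of this each treatment altered. Under Anti-miR-21, 24 of the 35 members were lower and 3 higher than in Veh, beside 30.5% of all genes lower and 28.8% higher (59.2% in all). The median of the members was -1.16 and that of all genes -0.04. Lower were 7 of 11 fibrillar genes (median -1.76), 3 of 3 network genes (-2.18), 4 of 7 FACIT genes (-1.01) and 10 of 14 others (-0.92). Under ACEi 17 members were lower and 3 higher, beside 19.1% and 21.0% of all genes (40.1% in all), with a median of -0.47 beside -0.05. By class these were 6 fibrillar genes (median -0.94), 3 network genes (-1.09), 4 FACIT genes (-1.06) and 4 of 14 others (-0.32). Col27a1, Col19a1 and Col6a6 were the 3 higher genes under each treatment. Without Col10a1, Col17a1 and Col19a1 the counts of 32 were 22 lower and 2 higher under Anti-miR-21 and 16 and 2 under ACEi. Within flow cell A, Anti-miR-21 gave 22 lower and 3 higher members, and within flow cell B, ACEi gave 7 and 1 of 32 tested. Flow cell B holds 1 Anti-miR-21 library and flow cell A 1 ACEi library, and those comparisons were not run within them. Without the 4 mice with adipocyte markers the counts were 20 lower and 2 higher under Anti-miR-21 and 10 and 2 under ACEi, and without ACEi mouse A23 the ACEi count was 11 lower.

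**Figure D3:**
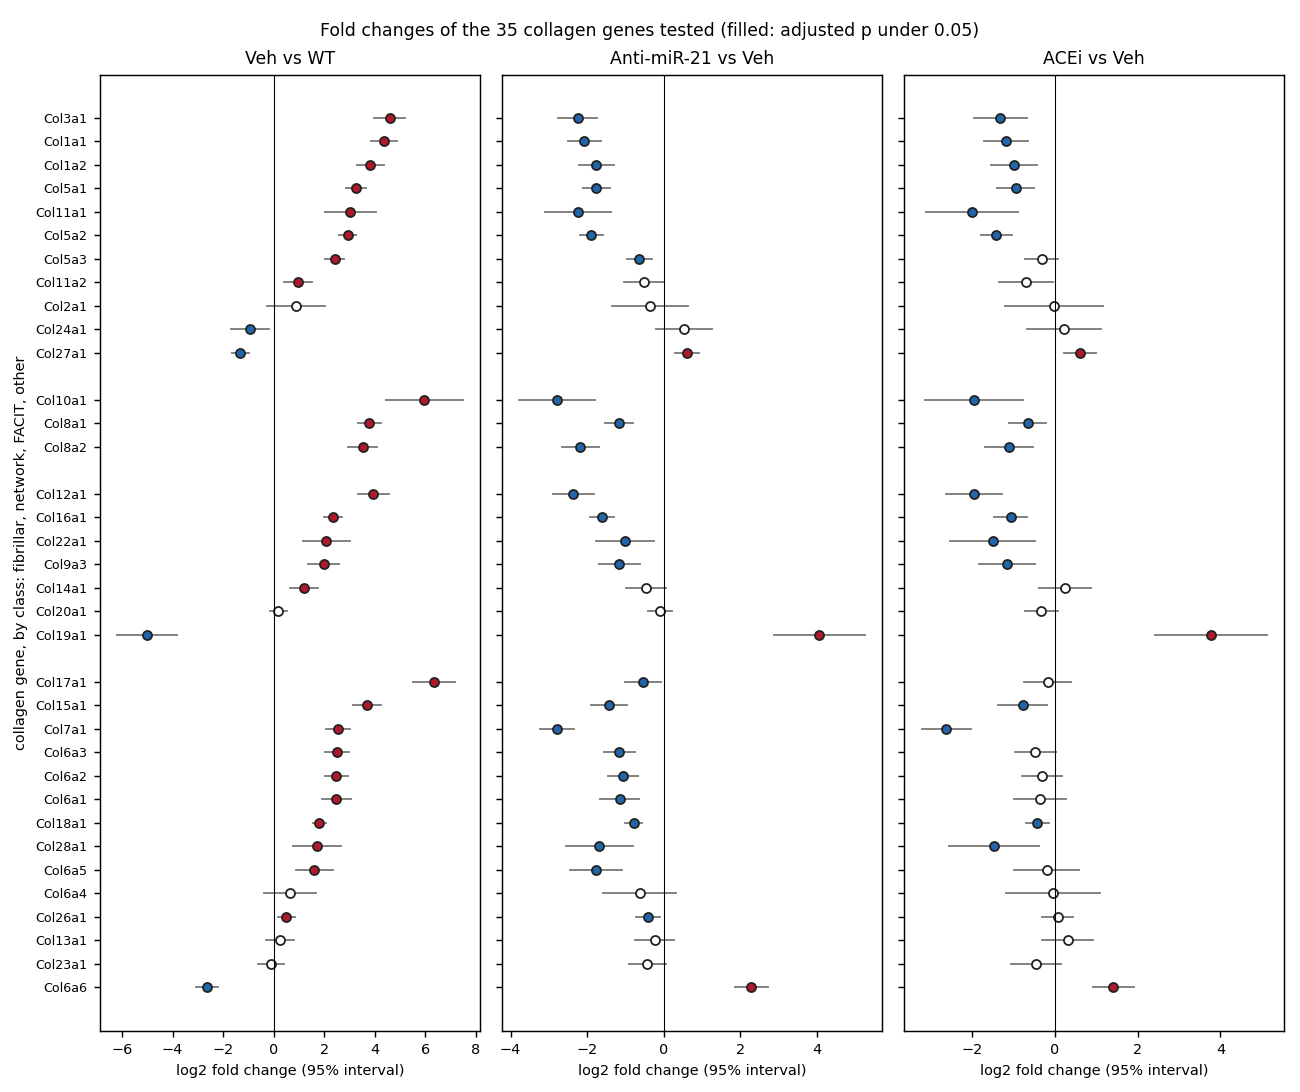
Log2 fold changes of the 35 tested members with 95% intervals in Veh against WT, Anti-miR-21 against Veh and ACEi against Veh, by class, filled where the adjusted p was under 0.05; the 3 panels have different x ranges. Most genes lie right of 0 in the left panel and left of 0 in the others, and Col27a1, Col19a1 and Col6a6 on the opposite sides.

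Set beside WT, most members stayed raised. Under Anti-miR-21, 19 members were higher than in WT and 1 lower (background 23.9% and 19.8%, 43.7% in all), and under ACEi 20 and 2 (25.2% and 22.5%, 47.7% in all). The medians were 0.82 and 1.39, beside 0.01 and -0.00 for all genes. Without Col10a1, Col17a1 and Col19a1, 17 of 32 members were higher and 1 lower under Anti-miR-21 (median 0.81), and 18 and 2 under ACEi (1.34). The call of Col10a1 against WT was lost in 4 settings under Anti-miR-21 (adjusted p up to 0.543) and in 2 limma fits under ACEi (up to 0.286). Within flow cell A the counts under Anti-miR-21 were 17 and 2, and within flow cell B those under ACEi 18 and 2. Of the 26 genes that rose in Veh, 24 were called lower under Anti-miR-21 than in Veh, of which 18 remained above WT. The other 6 (Col11a1, Col22a1, Col26a1, Col28a1, Col6a5 and Col7a1) were not called against WT. Under ACEi 17 of the 26 were called lower than in Veh, of which 12 remained above WT and 5 (Col11a1, Col22a1, Col28a1, Col7a1 and Col9a3) were not called against it. Of the 9 not called under ACEi against Veh, Col14a1, Col17a1, Col26a1, Col5a3, Col6a1, Col6a2, Col6a3 and Col6a5 were above WT and Col11a2 was not called. The 26 were chosen by the same Veh mice that were the reference for both treatments, which favours falls among them in advance. The share called lower among all genes that rose in Veh is not given here. Col1a1 was 2.29 above WT on the log2 scale under Anti-miR-21 and 3.20 under ACEi, and Col8a1 2.61 and 3.14. Single mice decided some of these calls against WT: that of Col14a1 under Anti-miR-21 (adjusted p = 0.0330) was lost without A3, A17, A2 or A8 (up to 0.0751), and that of Col9a3 (adjusted p = 0.0382) without any 1 of 7 mice (up to 0.0952 without A6). Under ACEi, that of Col26a1 was lost without A11 or A23 (up to 0.0880) and that of Col6a5 without A23 (0.0763). Missing the threshold against WT does not show equality with WT.

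**Figure D4:**
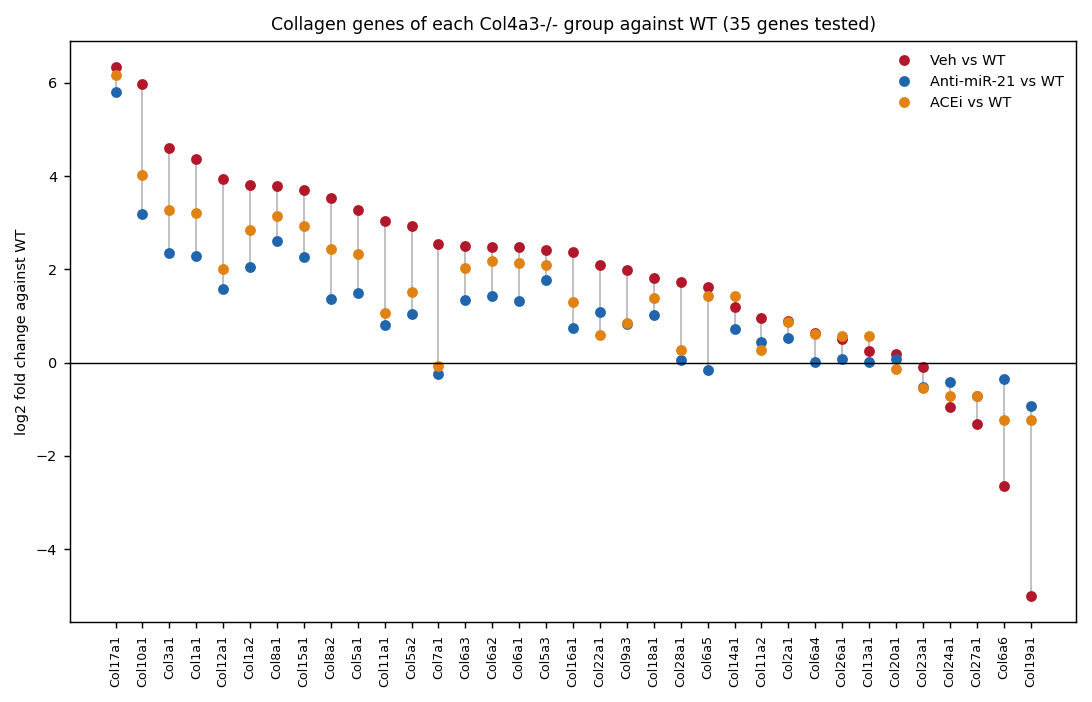
Log2 fold change against WT of the 35 tested members in Veh, Anti-miR-21 and ACEi mice, ordered by the Veh value, with a grey line joining the 3 values of a gene. Blue and orange points mostly lie between red and 0, while all 3 points of Col17a1 lie close together and far above 0.

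The direct comparison of Anti-miR-21 with ACEi called 0 of 35 members by edgeR, beside 0.363% of all genes higher and 0.221% lower (0.584% in all). At an unadjusted p under 0.05 there were 17 members, beside 2562 of 17622 genes. DESeq2 called 7 members, namely Col6a6 as higher and Col1a1, Col3a1, Col5a1, Col6a2, Col6a5 and Col8a2 as lower under Anti-miR-21. The member median was -0.49 and the values ran from -1.57 to 0.87. Largest in size was Col6a5 at -1.57 (95% interval -2.36 to -0.78, adjusted p = 0.0580), followed by Col8a2 at -1.09 (-1.65 to -0.52, adjusted p = 0.0653). Among the fibril chains Col3a1 differed by -0.94 (-1.52 to -0.35, adjusted p = 0.130), Col1a1 by -0.91 (-1.40 to -0.42, adjusted p = 0.0772), Col5a1 by -0.82 (-1.24 to -0.41, adjusted p = 0.0586) and Col1a2 by -0.78 (-1.30 to -0.25, adjusted p = 0.155). The type VI chain Col6a1 differed by -0.81 (-1.42 to -0.20, adjusted p = 0.207), and Col6a6 was higher by 0.87 (0.36 to 1.38, adjusted p = 0.108). Each of these intervals leaves out 0 while the adjusted p misses the threshold. Without Anti-miR-21 mouse A8, edgeR called 4 members lower (Col1a1, Col5a1, Col6a5 and Col8a2), and without A2 it called Col5a1. When only the groups compared were fitted, edgeR called Col14a1 lower under Anti-miR-21 than under ACEi (adjusted p = 0.0289). For Col27a1 (-0.00, -0.39 to 0.39), Col7a1 (-0.16, -0.72 to 0.39) and Col12a1 (-0.42, -1.04 to 0.19) the interval spans 0.

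Ratios of counts between chains within a mouse do not depend on the scaling between libraries. For 10 pairs of chains and 4 comparisons, 40 exact two-sided permutation tests of the mean log2 ratio were run and adjusted together, and 9 passed, each with an adjusted p of 0.0192. The log2 ratio of Col1a1 to Col1a2, which form a trimer at a fixed proportion of α1 to α2 chains, was -0.37 ± 0.21 in WT (SD), 0.14 ± 0.14 in Veh, -0.20 ± 0.10 under Anti-miR-21 and -0.05 ± 0.06 under ACEi. It was higher in Veh than in WT by 0.51 and lower under Anti-miR-21 than in Veh by 0.33. No WT and no Anti-miR-21 mouse reached a Veh mouse. Col14a1 over Col1a1 fell by 3.01 in Veh and was 1.68 higher under Anti-miR-21 than in Veh, Col5a1 over Col1a1 fell by 1.10 and was 0.34 higher, and Col15a1 over Col18a1 rose by 2.01 and fell by 0.67. Col8a1 over Col8a2 passed for Anti-miR-21 against Veh alone (1.01), while its Veh against WT difference of 0.19 was not called. The ratios of Col6a3 and Col6a2 to Col6a1, Col3a1 and Col12a1 to Col1a1, and Col5a2 to Col5a1 passed in no comparison. With 3 ACEi mice and p as 2 times the smaller tail, the smallest raw p possible is 0.0238 against either other Col4a3-/- group. The lowest adjusted p of an ACEi comparison was then 0.0595. A p by the absolute difference, chosen after seeing the data, is not doubled and can be smaller. With it 6 more tests passed, all of them ACEi comparisons. Tests at this limit included Col14a1 over Col1a1 (1.40) and Col5a2 over Col5a1 (-0.46) for ACEi against Veh. Another was Col12a1 over Col1a1 (0.49) for Anti-miR-21 against ACEi. As tests at the limit missed the threshold, a miss in an ACEi comparison does not show an equal ratio. The ratio tests were not repeated within flow cells.

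**Figure D5:**
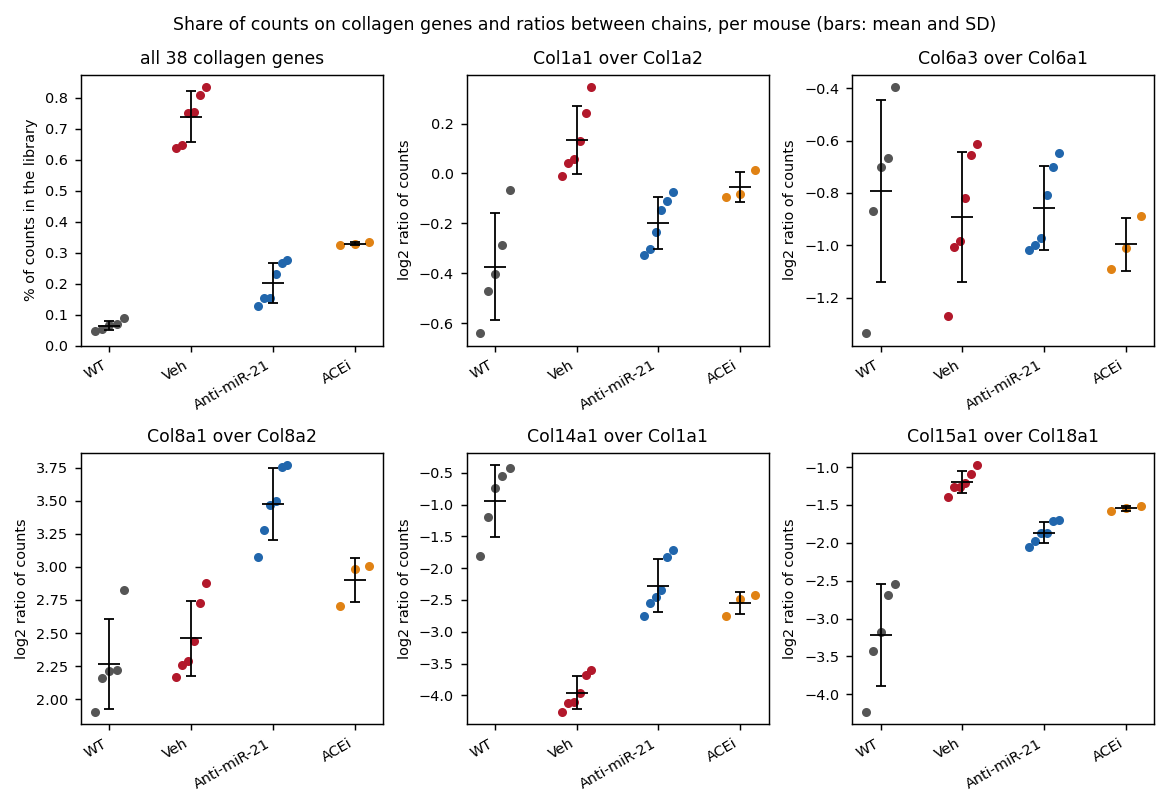
Percentage of a library's counts on the 38 genes and log2 ratios of counts between chains, per mouse, with bars for mean and SD (WT n = 5, Veh n = 6, Anti-miR-21 n = 6, ACEi n = 3). The share is lowest in WT and highest in Veh, Col1a1 over Col1a2 is highest in Veh, and Col6a3 over Col6a1 overlaps in all groups.

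The genes that fold, cut, crosslink, bind and break down collagen are given next. The 48 symbols listed for them include older names of P3h1, P3h2 and P3h3 beside the current ones. Of these symbols 42 were tested, of which 32 rose and 4 fell in Veh, beside 39.0% and 34.0% of all genes. Under Anti-miR-21 29 were lower and 3 higher than in Veh (30.5% and 28.8% of all genes), and under ACEi 19 and 3 (19.1% and 21.0%). Their median log2 differences were 1.22, -0.68 and -0.41. All 5 crosslinking genes, all 7 receptors and all 7 breakdown genes rose in Veh, in short lists and beside the same 39.0% of all genes. Under Anti-miR-21 4 of the crosslinking genes, 7 receptors and 6 breakdown genes were lower than in Veh, and under ACEi 3, 1 and 5. The folding genes were mixed, with 9 of 17 higher and 4 lower in Veh. Serpinh1, the collagen chaperone HSP47, averaged 117 ± 11.7 CPM in WT, 386 ± 73.8 in Veh, 226 ± 30.4 under Anti-miR-21 and 269 ± 19.3 under ACEi. It rose by 1.72 in Veh and fell by 0.77 under Anti-miR-21 and 0.52 under ACEi. Lox, which crosslinks fibrils, averaged 3.18 ± 0.543 CPM in WT, 71.3 ± 13.4 in Veh, 19.8 ± 8.02 under Anti-miR-21 and 28.9 ± 1.77 under ACEi, with log2 differences of 4.48, -1.85 and -1.30. Ddr2, a receptor tyrosine kinase for fibrillar collagen, rose by 2.48 and fell by 0.91 under Anti-miR-21, and its ACEi difference of -0.57 was not called (adjusted p = 0.0860). Mmp2, a gelatinase, rose by 4.24 and fell by 0.85 and 0.82.

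Markers of several cell types, among them cells that make collagen, differed between the groups. The 5 fibroblast markers (Pdgfra, Pdgfrb, Dcn, Lum and Dpt) summed to 78.6 to 179.8 CPM in WT, 437 to 579.7 in Veh, 274 to 465 under Anti-miR-21 and 332 to 372 under ACEi. All 5 rose in Veh (39.0% of all genes), 4 were lower under Anti-miR-21 (30.5%), and 1, Pdgfrb, under ACEi (19.1%). The 4 smooth muscle and myofibroblast markers summed to 115 to 173, 366 to 545, 183 to 256 and 226.6 to 275 CPM in the same order, and the 5 macrophage markers to 137 to 150.2, 771 to 943, 334 to 503 and 431 to 509.9 CPM. Of the smooth muscle and myofibroblast markers 3 rose in Veh, 3 were lower under Anti-miR-21 and 4 under ACEi, beside the same shares of all genes. Myh11 was called against Veh under ACEi alone and was not called in Veh against WT. The 4 proximal tubule markers went the other way, with 1162 to 3120.3 CPM in Veh, 5318 to 8962 under Anti-miR-21 and 5529.7 to 7359 under ACEi, and no defining marker of these lists was at 0 in a whole group. Their part in the collagen results was not tested.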

How the data were processed

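Kidney libraries of 20 mice in 4 groups were used. Reads were aligned by the authors against GRCm38 in OmicSoft software, and the values they deposited for 47069 Ensembl genes are estimated counts (expected counts) without normalization between libraries. They also deposited FPKM values, normalized for length and library total, on a gene model given here by symbol only. The strand of counting is not given in the sources used here. Of the FPKM table, 3 columns matched no mouse of the groups and were not used. Each library was assigned to a mouse by its name in the labels, and flow cell A (13 libraries) or B (7) was read from the same names. Genes without a symbol held 0.0919% of the counts.

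Of the positive counts 27.9% were not whole, and all were rounded. Genes were filtered with filterByExpr (minimum count 10, minimum total 15), scaled by TMM and fitted in edgeR 4.0.16 (R 4.3.3, quasi-likelihood test) with 1 coefficient for each group over all 20 mice. P-values were adjusted by Benjamini-Hochberg over 17622 genes, with a threshold of 0.05. Fold changes are given on the log2 scale. A gene was treated as at the floor if no library of a group exceeded 3 counts, and intervals of 95% on such ratios cover counting error only. For chain ratios, exact permutation tests (two-sided) were run in scipy 1.17.1 (Python 3.11.15, numpy 2.4.6, pandas 2.3.3), with p as 2 times the smaller tail, and plots were drawn with matplotlib 3.10.9. The fits were tested on simulated data in which a small part of the genes changed. Such data do not test the scaling where most genes change, as between Veh and WT (73.0% called).

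Alternatives were DESeq2 1.42.0, limma 3.58.1 on log2(FPKM + 1), other scalings, filters, pseudocounts and flow cell settings, fits of only the compared groups, and fits that each left out 1 mouse. Flow cell B alone, leaving out mice above 50 CPM of adipocyte markers, and a p by the absolute difference of ratios were chosen after seeing the data. Genes were named with all values if they were among the 3 with the highest mean FPKM, had the largest called rise or fall of their class in Veh vs WT, Anti-miR-21 vs Veh or ACEi vs Veh, or moved against their class in Veh vs WT. Members and lists were chosen with earlier results of these data known.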

Additional observations from a re-analysis of the deposited data

Results flagged for a closer look

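Each group of 4 to 10 mice was searched for a highest or lowest mouse far from the rest of its group, by Dixon's criterion at the 95% level. Of 105 such groups of a gene 4 were picked out, and chance alone picks out about 5%. Col11a1, a chain of cartilage fibrils, was at 0.736 CPM in WT mouse A17, with the other WT mice at 0.0839 to 0.169 CPM. Col10a1, the growth plate collagen, was at 0.0891 CPM in WT mouse A3 and at 0 in the other 4, and this value rests on 2 counts. Col6a6, an alternative chain of type VI collagen, was at 57.7 CPM in Anti-miR-21 mouse A22 and at 22.6 to 32.3 CPM in the others of the group. Col26a1, a collagen of testis and ovary, was at 5.83 CPM in WT mouse A18, and at 3.80 to 4.25 CPM in the other WT mice. The 4 values fell in 4 different mice.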

How the results depend on the processing

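No called member changed sign under any alternative. The counts of members kept within 1.5 times the main count except in the following cases, whose causes were not tested. In Veh vs WT, 2 and not 4 members were lower when at least 10 counts were required in every mouse, which leaves 25 members. In ACEi vs Veh, 7 and not 17 were lower and 1 and not 3 higher within flow cell B, and 10 were lower without the mice above 50 CPM of adipocyte markers. In Anti-miR-21 vs ACEi, DESeq2 called 6 lower and 1 higher, and 1 lower was called with at least 10 counts in every mouse, with flow cell as a term, with only the groups compared, and by limma on log2(FPKM + 1) at a mean FPKM of at least 0.1. In Anti-miR-21 vs WT, 2 and not 1 were lower by DESeq2, within flow cell A, with only the groups compared and without the adipocyte-marker mice. In ACEi vs WT, 1 and not 2 was lower with library totals. Of the chain ratios 15 and not 9 passed with p by the absolute difference, and the 6 more were ACEi comparisons. With each mouse left out in turn, the members lower ranged from 3 to 4 in Veh vs WT, 21 to 25 in Anti-miR-21 vs Veh, 11 to 16 in ACEi vs Veh, 0 to 4 in Anti-miR-21 vs ACEi, 1 to 2 in Anti-miR-21 vs WT and 2 to 3 in ACEi vs WT. Of 119 called pairs of gene and comparison 15 lost their call without some mouse, and of the 91 others 14 gained one. Within flow cell A no ACEi comparison was run and within flow cell B no Anti-miR-21 comparison, each having 1 library there. No paired analysis was possible because the mouse names are unique and the replicate numbers follow only the order of the samples. With 3 mice, ACEi differences are less precise, and for genes of a few counts a library fold changes are bounded only loosely.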

Other observations

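Over the 26 members that rose in Veh, the same mice were often at the ends of their group. Among the 6 Anti-miR-21 mice, A8 was the highest for 17 of the 26 genes and A22 the lowest for 18. A8 also had the highest summed macrophage markers of its group (503 CPM) and the lowest proximal tubule markers (5318 CPM), and A22 the lowest fibroblast (274 CPM) and macrophage markers (334 CPM) and the highest proximal tubule markers (8962 CPM). Other lists did not follow this order. The highest fibroblast markers of the group were in A2 (465 CPM). Its smooth muscle and myofibroblast markers were highest in A12 (256 CPM) and lowest in A2 (183 CPM). A22 was also the mouse of its group with the highest Col6a6, 1 of the 4 members that fell in Veh. In Veh, A16 was the lowest for 12 genes and had the highest proximal tubule markers of its group (3120.3 CPM), while the lowest fibroblast markers were in A1 (437 CPM). In WT, A18 was the lowest for 13 and A6 the highest for 12, and these mice had the lowest and highest fibroblast markers (78.6 and 179.8 CPM). These are descriptions of mice whose genes are not independent of one another, and the part of cell makeup in them was not tested.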
